A study of Caenorhabditis elegans with 4 samples.

Results

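The oxidative phosphorylation genes were taken as the nuo, cox, atp, asb, asg, ucr, nduo and ctc genes of *C. elegans* together with gas-1, lpd-5, isp-1, cyc-1, mev-1, sdha-1, sdhb-1, sdhd-1, ndfl-4 and ctb-1, chosen by gene symbol and not by any measured value. This gave 55 of the 46934 gene identifiers counted, of which 12 lie on the mitochondrial genome and 43 on nuclear chromosomes. The nuclear genes comprised 8 of complex I, 4 of complex II, 7 of complex III, 7 of complex IV, 9 of complex V and 8 factors that assemble complex IV. The symbols take in only part of the nuclear subunits, and further subunits were described from a separate list. After a filter on low counts 54 of the 55 genes were tested. nuo-3, a complex I subunit, did not pass it, with 0 and 2 counts upon ATTF-6 depletion and 19 and 3 counts in the control.

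Whole adult animals were compared by mRNA-seq, with 2 libraries from the strain gfp::aid::attf-6; mex-5p::tir1 (ATTF-6 depletion) and 2 from the strain mex-5p::tir1 (control). ATTF-6 is an AT-hook protein, and the study asked which transcripts depend on it. In both strains the mex-5 promoter drives the adaptor TIR1 in the germ line, and all animals were grown at 20 °C and moved to 4 mM auxin at the L4 stage, so that only the strain with the degron on ATTF-6 loses the protein. The tag on attf-6 and the loss of the protein occur in the same libraries and cannot be told apart. Ribosomal RNA was digested with RNase H before library preparation, and no selection for poly(A) tails was described.

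The depletion libraries held 23923423 and 27269737 counts on genes, and the control libraries held 32096525 and 29753993. The depletion libraries differed more from each other, with a chi-square of 44.9 per gene, than the control libraries did, at 3.62 per gene. attf-6 itself, whose coding sequence is present in both strains, had 2290 and 3504 counts upon depletion and 5310 and 5233 counts in the control. Over all genes tested, 10452 of 16591 (63.0%) differed at an adjusted p under 0.05, with 30.9% higher and 32.1% lower upon depletion, and the median log2 fold change was 0.16. Tissue markers moved with the groups. The 14 germ cell markers summed to 1203 and 1464 normalized counts (CPM, counts scaled to a common library size) upon depletion and to 3470 and 3484 CPM in the control, and all 14 fell. The 12 oocyte markers summed to 1579 and 1939 CPM upon depletion and to 9632 and 9612 CPM in the control, and all 12 fell. The 20 muscle, intestinal, epidermal and neuronal markers, called soma markers here, summed to 18008 and 18101 CPM upon depletion and to 11455 and 11382 CPM in the control, and 13 rose. The muscle gene unc-54 alone had 8129 and 9344 CPM upon depletion and 5462 and 5426 CPM in the control. Scaling to the soma markers used this sum, so it rests mainly on the most abundant markers. Singly, 18 of the 20 had positive log2 fold changes and 2 negative, with a median of 0.54. The 11 sperm genes summed to 221 and 237 CPM upon depletion and to 134 and 129 CPM in the control, and 9 rose. No marker had a count of 0 in any library. In such whole-animal RNA, fewer cells of a type and less RNA per cell cannot be told apart, and the part of tissue composition in the values that follow was not tested.

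Oxidative phosphorylation is carried out by protein complexes of the inner mitochondrial membrane. Complexes I and II pass electrons from NADH and succinate to coenzyme Q, complex III passes them on to cytochrome c, complex IV hands them to oxygen, and complex V (ATP synthase) uses the resulting proton gradient to make ATP. Complexes I, III, IV and V are built from proteins of both genomes, whereas complex II is entirely nuclear encoded. In *C. elegans* the germ line holds much of the adult's mitochondrial DNA, and some subunits have a pair of genes of which one is used mainly in the germ line.

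Upon ATTF-6 depletion 15 of the 54 tested genes differed (27.8%, against 63.0% of all genes tested), with 7 higher and 8 lower. This lower share held with both depletion libraries in the fit but not without depletion replicate 2. Most nuclear subunits stayed within a narrow range. The genes that changed were mainly paralogs of 1 subunit, which include the X-linked genes, and complex IV assembly factors. With libraries scaled by TMM the paralogs moved in opposite directions, but scaled to the soma markers the rising ones were not called higher. The X-linked genes were higher in 6 of 6 cases with TMM, against 34.2% of all X-linked genes tested, and in 0 of 6 when scaled to the soma markers. Of the assembly factors 4 of 8 fell, against 32.1% of all genes tested. Transcripts of the mitochondrial genome differed mainly between the depletion libraries, as replicate 1 was low for all 12 of them and replicate 2 was not.

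The mitochondrial-genome genes encode 7 membrane subunits of complex I (nduo-1 to nduo-6 and ndfl-4), cytochrome b of complex III (ctb-1), the 3 core subunits of complex IV (ctc-1 to ctc-3) and the proton-channel subunit of ATP synthase (atp-6). Together they took 0.238% and 0.656% of all counts upon depletion and 0.576% and 0.608% in the control. Depletion replicate 1 was below both control libraries and depletion replicate 2 was above both, so the groups overlapped and the difference was not larger than the spread (exact permutation test over the 4 libraries, two-sided, p = 1). Nuclear oxidative phosphorylation genes took 1.23% and 1.13% of counts upon depletion and 1.13% and 1.12% in the control (exact permutation p = 0.333, the smallest that 2 against 2 libraries allow). The mitochondrial genome therefore supplied 16.2% and 36.7% of the counts of the 55 genes upon depletion, against 33.7% and 35.1% in the control.

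**Figure D1:**
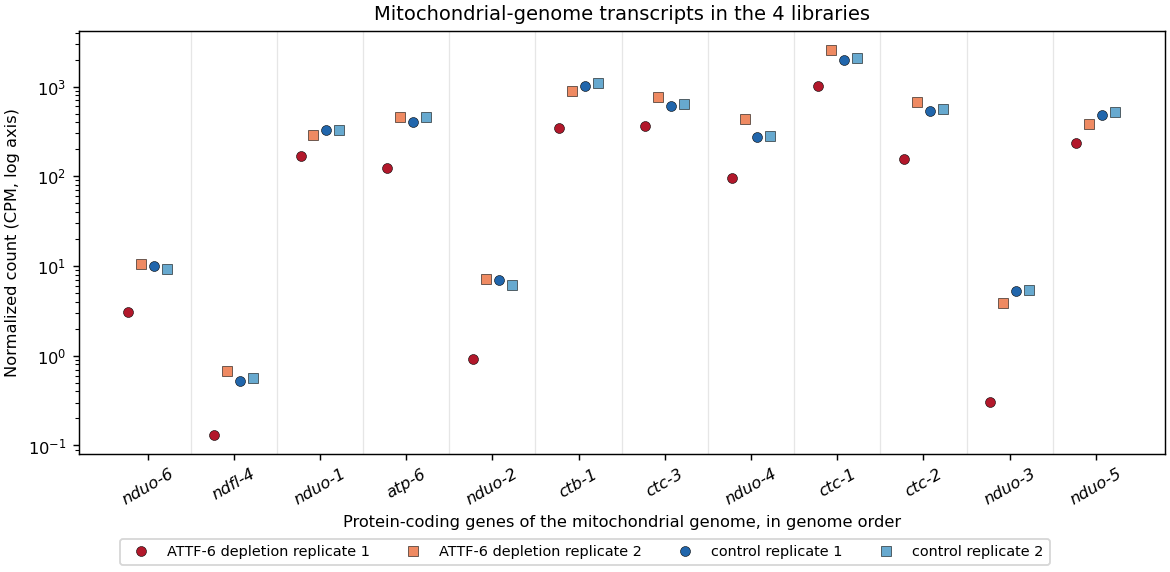
Normalized counts (CPM, log axis) of the 12 mitochondrial-genome genes in genome order, with 1 point per library: depletion replicates 1 and 2 on the left of each gene, control replicates 1 and 2 on the right. Depletion replicate 1 is the lowest library for all 12 genes, at 5.80% to 59.1% of the control mean, while depletion replicate 2 lies at 73.6% to 154% of it.

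The low level in depletion replicate 1 held for every mitochondrial gene. It lay between 5.80% of the control mean for nduo-3 and 59.1% for ctc-3, whereas depletion replicate 2 lay between 73.6% for nduo-3 and 154% for nduo-4. The log2 ratio of depletion replicate 1 to replicate 2 lay between −3.67 and −0.72 for the 12 genes (median −1.84), while the 5th and 95th percentiles over 15729 genes were −0.69 and 0.79. Over the nuclear oxidative phosphorylation genes the median ratio was 0.27. The control libraries differed by at most 0.18 on the log2 scale for any of the 12. Mitochondrial ribosomal RNA, which does not encode protein, followed the same pattern of libraries, with 67 and 258 counts upon depletion and 285 and 249 counts in the control. Ribosomal RNA had been digested before library preparation, and the part of this digestion in these few counts was not tested.

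nduo-5 was the only mitochondrial-genome gene to pass the test over all genes. It had 234 and 385 CPM upon depletion and 483 and 524 CPM in the control, with no overlap between the groups, and fell by 0.70 on the log2 scale (SE 0.21, adjusted p = 0.015, edgeR quasi-likelihood test with Benjamini-Hochberg adjustment). With DESeq2 it was at −0.81 with an adjusted p of 0.055, so that the call was lost while the fold change was no smaller. The complex I gene nduo-1 had 168 and 286 CPM upon depletion and 327 and 330 CPM in the control (log2 fold change −0.53, adjusted p = 0.053 in the edgeR test). Cytochrome b, ctb-1, had 347 and 886 CPM upon depletion and 1025 and 1108 CPM in the control (log2 fold change −0.79, adjusted p = 0.069 in the edgeR test). For both genes the 2 depletion libraries lay below the 2 control libraries, but the distance between the depletion libraries was large. nduo-3 also did not overlap, at 7 and 109 counts upon depletion and 171 and 163 counts in the control.

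The other 8 mitochondrial genes overlapped between the groups. With 2 against 2 libraries no exact permutation p can be below 0.333, so a lack of overlap in a single gene says little by itself. The share of all genes without overlap was not computed. ctc-1, the catalytic subunit of complex IV, had 1010 and 2524 CPM upon depletion and 1986 and 2073 CPM in the control. ctc-2 had 156 and 677 CPM upon depletion and 531 and 559 CPM in the control. ctc-3 had 368 and 757 CPM upon depletion and 612 and 632 CPM in the control. All 3 complex IV subunits thus lay above the control libraries in depletion replicate 2 and below them in replicate 1, and the same was true of nduo-4, with 95.7 and 429 CPM upon depletion and 274 and 284 CPM in the control. atp-6 had 122 and 456 CPM upon depletion and 408 and 455 CPM in the control. nduo-6 had 3.04 and 10.4 CPM upon depletion and 9.94 and 9.33 CPM in the control. nduo-2 had 0.925 and 7.07 CPM upon depletion and 6.99 and 6.19 CPM in the control. For these 3 genes too depletion replicate 2 lay slightly above both control libraries and replicate 1 far below them. ndfl-4 was rarely counted, with 3 and 19 counts upon depletion and 17 and 17 counts in the control.

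The direction of the mitochondrial genes depended on which depletion library was used. Without depletion replicate 1, 4 of 12 were higher (nduo-4 by 0.62, ctc-1 by 0.31, ctc-2 by 0.31 and ctc-3 by 0.28 on the log2 scale) and 3 were lower (nduo-1 by −0.21, nduo-5 by −0.40 and ctb-1 by −0.28), with a median log2 fold change of 0.10. Without depletion replicate 2, 0 were higher and 11 were lower, with a median of −1.69. In these fits the lone depletion library is assumed to vary as the control libraries do, and 64.1% and 63.7% of all genes were called. nduo-1, nduo-5 and ctb-1 were lower with either depletion library. The median over the 12 genes was −0.51 with both libraries.

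Levels per length also differed among the mitochondrial genes. ctc-1 averaged 1103 CPM per kb upon depletion and 1267 CPM per kb in the control, close to the nuclear ATP synthase subunits atp-2 (1237 upon depletion and 1220 in the control) and atp-1 (1048 upon depletion and 1007 in the control), which were among the most abundant of the 55 genes. ctb-1 averaged 552 CPM per kb upon depletion and 954 CPM per kb in the control. By contrast, 4 complex I genes were far lower on this scale, with nduo-6 at 15.4 CPM per kb upon depletion and 22.0 in the control, nduo-3 at 6.28 upon depletion and 15.8 in the control, nduo-2 at 4.54 upon depletion and 7.48 in the control, and ndfl-4 at 1.73 upon depletion and 2.31 in the control. The genes of this small genome lie next to each other, and ndfl-4, one of the shortest, overlaps nduo-6 by 1 base. A read that covers a pair of adjacent genes is by default assigned to neither by the counting program, and its part in these levels was not tested.

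Of the 42 nuclear genes tested, 7 were higher (16.7%) and 7 lower (16.7%), against 30.9% and 32.1% of all genes tested, and the median log2 fold change was 0.12 against 0.16 over all genes. Among the 34 subunits the median was 0.15, and outside the asb, asg and ucr-2 paralogs 3 of 27 subunits were higher and 0 were lower, with a range of log2 fold changes between −0.18 and 0.61. With the libraries scaled to the soma markers, which shifts the median of all genes by −0.66 on the log2 scale, 0 of the 42 nuclear genes were higher and 30 were lower, against 9.04% of all genes higher and 46.1% lower, and their median was −0.55 against −0.50 for all genes. Without depletion replicate 2, 25 of the nuclear genes were higher and 11 lower, against 30.3% of all genes higher and 33.4% lower. Without depletion replicate 1, 8 were higher and 11 lower, against 30.1% and 34.0% of all genes. Without control replicate 1, 3 were higher and 7 lower, against 21.2% and 27.0% of all genes, and without control replicate 2, 4 were higher and 7 lower, against 20.5% and 27.0%. The sign of the nuclear genes thus depended on the scaling, and the share called depended on which depletion library was left out. A change of scaling moves all genes by nearly the same amount, so it cannot test their position near the middle of all genes.

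**Figure D2:**
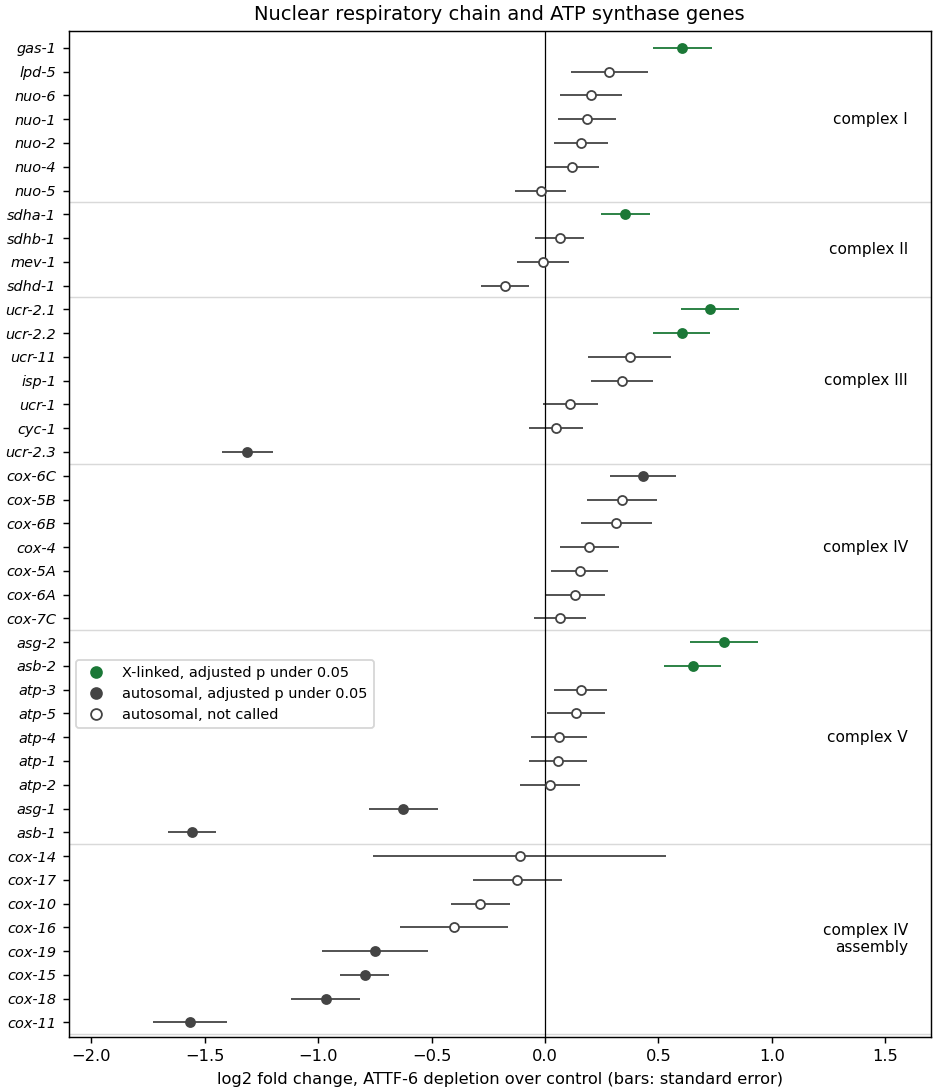
log2 fold change (ATTF-6 depletion over control, TMM scaling, bars: standard error) of the 42 tested nuclear genes by complex, with filled points for an adjusted p under 0.05 and X-linked genes in green. Most subunits lie near the median of 0.12, while ucr-2.3, asg-1, asb-1 and the assembly factors lie to the left, and all 6 X-linked genes lie between 0.35 and 0.79. Scaled to the soma markers, 0 of these 42 genes are higher.

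In complex I, 1 of 7 nuclear genes was higher and 0 were lower. gas-1, the X-linked catalytic-core subunit near the coenzyme Q site, had 196 and 157 CPM upon depletion and 114 and 118 CPM in the control, without overlap, and rose by 0.61 on the log2 scale with TMM scaling (SE 0.13, adjusted p = 0.0030 in the edgeR test), but not with scaling to the soma markers (−0.055). Without control replicate 1 the call of gas-1 was lost (0.57). nuo-1, the NADH-binding flavoprotein, had 352 and 291 CPM upon depletion and 290 and 274 CPM in the control (log2 fold change 0.19, adjusted p = 0.23 in the edgeR test). nuo-6, an accessory subunit known from a long-lived mutant, had 119.3 and 91.5 CPM upon depletion and 90.8 and 92.3 CPM in the control (0.20, adjusted p = 0.22 in the edgeR test). In nuo-6 depletion replicate 2 lay between the control libraries, and only replicate 1 was higher.

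In complex II, 1 of 4 genes was higher and 0 were lower. sdhb-1, the iron-sulfur subunit, had 191 and 175 CPM upon depletion and 173 and 177 CPM in the control (log2 fold change 0.07, SE 0.11). mev-1, the cytochrome b subunit that anchors the complex in the membrane, had 122 and 104 CPM upon depletion and 114 and 114 CPM in the control (log2 fold change −0.0099, SE 0.11). sdhd-1, the other membrane anchor, had 79.7 and 71.6 CPM upon depletion and 83.8 and 87.2 CPM in the control (log2 fold change −0.18, adjusted p = 0.17 in the edgeR test). Only sdhd-1 of these 3 showed no overlap between the groups, and none of them passed the test.

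In complex III, 2 of 7 nuclear genes were higher and 1 was lower, and all 3 are ucr-2 paralogs. isp-1, the Rieske iron-sulfur protein, had 367 and 287 CPM upon depletion and 260 and 257 CPM in the control (log2 fold change 0.34, adjusted p = 0.055 in the edgeR test). cyc-1, cytochrome c1, had 328 and 285 CPM upon depletion and 294 and 299 CPM in the control (0.05, SE 0.12). ucr-1, a core protein, had 464 and 402 CPM upon depletion and 404 and 398 CPM in the control (0.11, SE 0.12). isp-1 did not overlap between the groups, and cyc-1 and ucr-1 did. Scaled to the soma markers, isp-1 was at −0.32.

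In complex IV, 1 of 7 nuclear subunits was higher and 0 were lower. cox-4 had 452 and 371 CPM upon depletion and 360 and 359 CPM in the control (log2 fold change 0.20, SE 0.13). cox-5A had 411 and 342 CPM upon depletion and 335 and 341 CPM in the control (0.15, SE 0.13). cox-5B had 348 and 251 CPM upon depletion and 238 and 234.6 CPM in the control (0.34, adjusted p = 0.083 in the edgeR test, and −0.32 scaled to the soma markers). For each of these structural subunits the larger value was that of depletion replicate 1, in contrast to the mitochondrial-genome subunits of the same complex. The subunit that passed was cox-6C, with 208 and 155 CPM upon depletion and 133 and 136 CPM in the control (0.43, SE 0.14, adjusted p = 0.027 in the edgeR test). Its call was lost with DESeq2 (0.31), with RLE size factors (0.31), without control replicate 1 (0.40) and without control replicate 2 (0.43), and scaled to the soma markers it was −0.23.

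In complex V, 2 of 9 nuclear genes were higher and 2 were lower, and all 4 are asb or asg paralogs. The catalytic beta subunit atp-2 had 2542 and 2231 CPM upon depletion and 2351 and 2355 CPM in the control (log2 fold change 0.02, SE 0.13). The alpha subunit atp-1 had 2220 and 2036 CPM upon depletion and 2071 and 2020 CPM in the control (0.06, SE 0.13). atp-3, which joins the catalytic head to the peripheral stalk, had 432 and 382 CPM upon depletion and 369 and 361 CPM in the control (0.16, SE 0.12). The groups overlapped for atp-2 and atp-1 and not for atp-3, and none of the 3 passed the test.

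The largest differences among the subunits were between paralogs. asb-1 and asb-2 both encode subunit b of the ATP synthase stalk, and asb-1 is known in *C. elegans* as the germline form. asb-1 (chromosome III, 4594543 to 4595821 in WBcel235) had 63.9 and 61.3 CPM upon depletion and 179 and 189 CPM in the control, and fell by 1.56 on the log2 scale (SE 0.11, adjusted p = 6.3e-06 in the edgeR test). asb-2 (chromosome X, 4469766 to 4471476) had 569 and 482 CPM upon depletion and 343 and 327 CPM in the control, and rose by 0.65 with TMM scaling (SE 0.13, adjusted p = 0.0018 in the edgeR test), against −0.0100 scaled to the soma markers. The call of asb-2 was lost without control replicate 1 (0.67) or without control replicate 2 (0.59). Neither gene overlapped between the groups. asb-1 made up 10.1% and 11.3% of the counts of the pair upon depletion and 34.3% and 36.6% in the control, a difference of −24.8 percentage points that does not depend on the scaling of the libraries.

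The asg, ucr-2 and sdha paralogs also moved in opposite directions with TMM scaling. asg-1 and asg-2 encode subunit g of ATP synthase. asg-1, on chromosome I, had 101 and 72.1 CPM upon depletion and 133 and 134 CPM in the control (fell by 0.63, adjusted p = 0.0064 in the edgeR test). asg-2, on the X chromosome, had 234 and 171 CPM upon depletion and 118 and 117 CPM in the control (log2 fold change 0.79, adjusted p = 0.0016 in the edgeR test, and 0.13 without a call when scaled to the soma markers). The share of asg-1 in the pair was 30.2% and 29.6% upon depletion and 53.1% and 53.3% in the control, a difference of −23.3 percentage points. Per length, asg-1 averaged 182 CPM per kb upon depletion and 281 in the control, and asg-2 averaged 408 upon depletion and 236 in the control, so that the more abundant member of the pair was asg-2 upon depletion and asg-1 in the control.

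The 3 ucr-2 genes encode a core protein of complex III. ucr-2.3, on chromosome III, had 47.2 and 54.1 CPM upon depletion and 124 and 127 CPM in the control (fell by 1.31, adjusted p = 1.7e-05 in the edgeR test). ucr-2.1 had 233 and 189 CPM upon depletion and 129 and 126 CPM in the control (0.73, adjusted p = 0.00099). ucr-2.2 had 141 and 113 CPM upon depletion and 83.3 and 83.8 CPM in the control (0.60, adjusted p = 0.0026). The last pair of genes is X-linked, and scaled to the soma markers they were at 0.066 and −0.057 with no call. The share of ucr-2.3 was 11.196% and 15.2% upon depletion and 36.9% and 37.8% in the control.

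sdha-1 and sdha-2 encode the flavoprotein of complex II, and sdha-2 was not among the 55 genes. sdha-2, on chromosome I, had 48.3 and 55.4 CPM upon depletion and 135 and 138 CPM in the control (fell by 1.398, adjusted p = 1.3e-05 in the edgeR test). sdha-1, on the X chromosome, had 212 and 206 CPM upon depletion and 170 and 157 CPM in the control (0.35, adjusted p = 0.018 in the edgeR test). This call was lost with DESeq2, with RLE size factors and without either control replicate, and the value turned to −0.31 when scaled to the soma markers. The share of sdha-2 was 18.6% and 21.2% upon depletion and 44.3% and 46.8% in the control. gas-1 also has a paralog outside the 55 genes, nduf-2.2 on chromosome III, which was singled out after its values were seen. nduf-2.2 had 48.2 and 53.5 CPM upon depletion and 85.5 and 87.5 CPM in the control (fell by 0.77, adjusted p = 0.00025 in the edgeR test), and made up 19.7% and 25.4% of the pair upon depletion and 42.8% and 42.6% in the control.

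**Figure D3:**
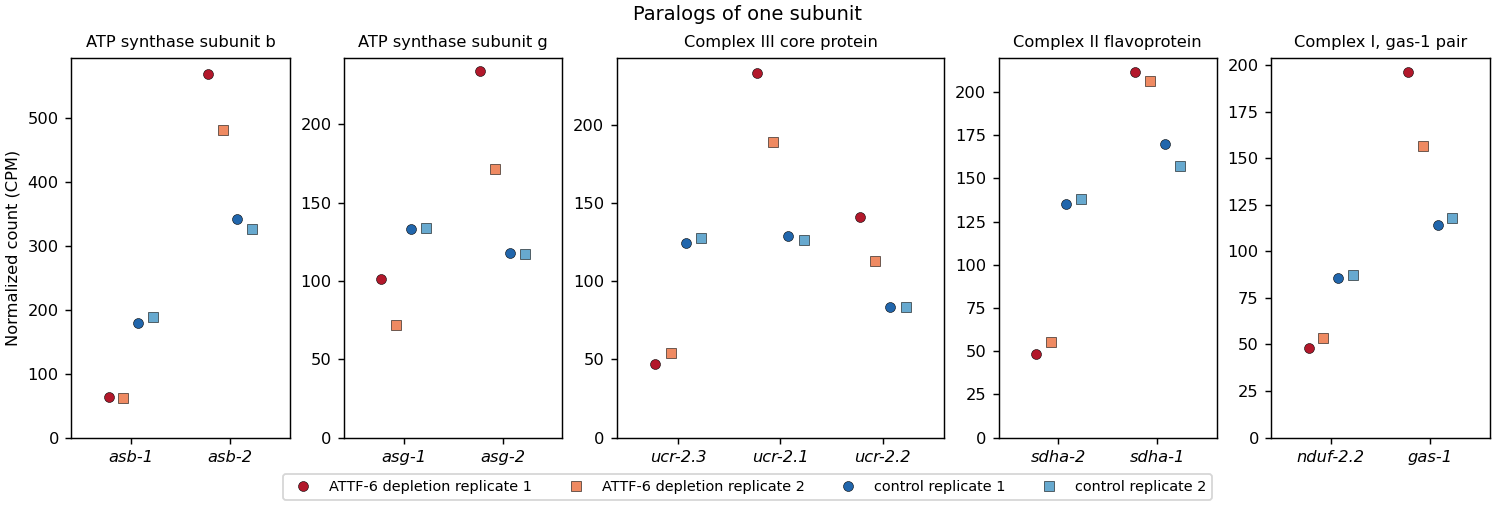
Normalized counts (CPM, linear axes starting at 0) of the paralogs of 5 subunits, with 1 point per library: depletion replicates on the left of each gene, control replicates on the right. The first gene of each panel is autosomal and lower upon depletion, and the others are X-linked and higher with TMM scaling but not when scaled to the soma markers.

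The change in share was between −20.1 and −25.7 percentage points in the 5 groups, and in each the 2 depletion libraries lay below the 2 control libraries. The exact permutation test gave p = 0.333 for each, the smallest possible with 2 libraries per group. The 95% Wilson intervals of the single shares were at most 2.46 percentage points wide, and they cover counting error only. In all 5 groups the gene that fell is autosomal and the genes that rose with TMM scaling are X-linked. Other genes are named here after their values were seen. Among the succinyl-CoA synthetase genes, X-linked sucl-1 and suca-1 were at 0.52 and 0.28 with TMM scaling (each called). The autosomal sucl-2 and sucg-1 were at −0.37 and −0.91 (each called). The cytochrome c and ATP synthase inhibitor pairs did not show a fall of 1 gene and a rise of the other. The cytochrome c genes cyc-2.1 and cyc-2.2 are both autosomal, with log2 fold changes of 0.15 (no call) and 1.14 (called), and of the ATP synthase inhibitor genes mai-2 on chromosome IV was at 0.18 (no call) and mai-1 on the X chromosome at 0.73 (called). Germ cell and oocyte markers were lower and soma markers higher in the same libraries, and their part in these shares was not tested. Without any 1 of the 4 libraries the difference in share was negative in all 5 groups.

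All 6 X-linked genes among the 55 were higher with TMM scaling (gas-1, sdha-1, ucr-2.1, ucr-2.2, asb-2 and asg-2, median log2 fold change 0.63), whereas 34.2% of all 2280 X-linked genes tested were higher, with a median of 0.36. These 6 are the same X-linked paralogs as above, so they are not a separate set of genes. Without control replicate 1, 3 of the 6 passed the test, and without control replicate 2, 4 did. Among the 36 autosomal genes 1 was higher and 7 were lower (22.2% called, against 65.4% of all autosomal genes tested). Of all 14294 autosomal genes tested 4340 were higher and 5013 lower. The median was 0.06 for the 36 genes and 0.10 for all autosomal genes tested. Scaled to the soma markers, 0 of the 6 X-linked genes were higher, 1 (sdha-1) was lower, and their median was −0.03.

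The factors that assemble complex IV were lower as a group in sign, with 8 of 8 negative log2 fold changes and a median of −0.58. Of the 8, 4 fell (50.0%) and 0 rose, against 32.1% of all genes lower. cox-11, which delivers copper to the catalytic subunit, had 5.38 and 5.64 CPM upon depletion and 16.7 and 15.9 CPM in the control, and fell by 1.56 on the log2 scale (SE 0.16, adjusted p = 5.3e-05 in the edgeR test). cox-18, which inserts the second core subunit into the membrane, had 9.21 and 8.65 CPM upon depletion and 17.9 and 17.1 CPM in the control, and fell by 0.97 (SE 0.15, adjusted p = 0.00053). cox-15, which makes heme A, had 26.6 and 27.9 CPM upon depletion and 49.0 and 45.6 CPM in the control, and fell by 0.80 (SE 0.11, adjusted p = 0.00023). None of these 3 genes overlapped between the groups, and each remained lower without any 1 library. Each was also lower under every scaling. The other scalings moved the median of all genes down or hardly at all, so they could not reverse a fall. cox-19, an intermembrane-space factor, was the fourth to fall, with 154 and 126 counts upon depletion and 282 and 311 counts in the control (by 0.75, adjusted p = 0.020 in the edgeR test), a call that was lost without control replicate 2.

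The 4 other assembly factors did not pass the edgeR test with TMM scaling. cox-10, which makes the heme O precursor of heme A, had 18.2 and 17.2 CPM upon depletion and 20.95 and 22.1 CPM in the control (log2 fold change −0.29, adjusted p = 0.083 in the edgeR test). It was called lower with DESeq2 (−0.40, adjusted p = 0.047), with RLE size factors (−0.40, adjusted p = 0.025), when scaled to the soma markers (−0.95) and without either depletion replicate. The copper chaperone cox-17 had 7.76 and 6.17 CPM upon depletion and 7.79 and 7.34 CPM in the control (−0.12, SE 0.20). cox-10 did not overlap between the groups and cox-17 was nearly level in depletion replicate 1. cox-16 was at −0.40 (SE 0.24), and cox-14 had at most 15 counts in any library, too few for a difference to be detectable. On the scale of CPM per kb the assembly factors were far below the subunits, with cox-15 at 20.2 upon depletion and 35.2 in the control and cox-17 at 21.7 upon depletion and 23.6 in the control, whereas cox-5A averaged 505 upon depletion and 455 in the control.

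Genes of neighbouring mitochondrial functions were read from lists chosen by symbol. Of 38 other respiratory chain and ATP synthase genes, 4 were higher and 2 lower (15.8% called, against 63.0% of all genes tested). Their median was 0.15, close to that of the nuclear subunits among the 55 genes. The largest increase was that of cyc-2.2, a cytochrome c gene, with 499 and 612 counts upon depletion and 326 and 302 counts in the control (log2 fold change 1.14, adjusted p = 0.00013 in the edgeR test), and the largest decrease was that of sdha-2. The increase of cyc-2.2 remained when scaled to the soma markers (0.48). Without depletion replicate 2 the median of the 38 genes was 0.31, against 0.080 for all genes tested. Without depletion replicate 1 it was −0.063, against 0.098 for all genes tested.

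Mitochondrial ribosomal protein genes, whose products translate the mitochondrial messages, fell in 58 of 70 cases and rose in 0, against 32.1% of all genes lower. Their median log2 fold change was −0.61 and all 70 were negative. mrpl-18 had the lowest value, with 9.43 and 8.83 CPM upon depletion and 26.3 and 27.7 CPM in the control (fell by 1.56, adjusted p = 2.1e-05 in the edgeR test). The count lower was 62 with DESeq2 and 70 when scaled to the soma markers, where 46.1% of all genes were lower. Without 1 library the median lay between −0.72 and −0.55, and fewer genes were called lower without either control replicate. The germ cell and oocyte markers fell in the same libraries, and their part in this was not tested.

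Genes that copy and transcribe mitochondrial DNA were lower in 4 of 5 cases, against 32.1% of all genes lower, with a median of −1.42. mtss-1, the single-stranded DNA binding protein of mitochondria, had 14.9 and 13.3 CPM upon depletion and 40.7 and 45.9 CPM in the control (fell by 1.62, adjusted p = 1.3e-05 in the edgeR test). The others that fell, named after their values were seen, were hmg-5, a packaging factor of mitochondrial DNA (log2 fold change −1.52), polg-1, the mitochondrial DNA polymerase (−1.42), and rpom-1, the mitochondrial RNA polymerase (−0.96). All 4 were lower in both depletion libraries, including depletion replicate 2, in which 8 of the 12 mitochondrial-genome transcripts were not below the control libraries. A relation between these 4 genes and the mitochondrial-genome transcripts was not tested. rpom-1 had 25.7 and 28.4 CPM upon depletion and 53.38 and 52.3 CPM in the control, without overlap. twnk-1, a mitochondrial helicase and the only X-linked gene of the 5, was at 0.57 (adjusted p = 0.074 in the edgeR test). Scaled to the soma markers, 4 of the 5 genes were lower, against 46.1% of all genes, with a median of −2.08.

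The other lists were mixed. Of 10 genes of coenzyme Q synthesis and cytochrome maturation, 3 fell and 1 rose (40.0% called, against 63.0% of all genes tested), with a median of −0.29, and the share that fell was close to the 32.1% of all genes. Among them cchl-1, which attaches heme to cytochrome c, had 959 and 1268 counts upon depletion and 3097 and 3242 counts in the control (fell by 1.204, adjusted p = 2.7e-05 in the edgeR test), and coq-6 of coenzyme Q synthesis had 44.0 and 42.6 CPM upon depletion and 30.1 and 29.1 CPM in the control (0.55, adjusted p = 0.0016 in the edgeR test, and −0.11 scaled to the soma markers). Both genes were without overlap between the groups, and the call of coq-6 was lost without control replicate 2 (adjusted p = 0.060). Without depletion replicate 1 the median of the 10 genes was −0.41, against 0.098 for all genes tested.

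Of 17 genes of the TCA cycle and pyruvate dehydrogenase, 3 rose and 3 fell (35.3% called, against 63.0% of all genes tested), with a median of −0.0078. sucg-1, a succinyl-CoA synthetase subunit, had 50.7 and 44.9 CPM upon depletion and 90.5 and 89.2 CPM in the control (fell by 0.91, adjusted p = 0.00010 in the edgeR test). sucl-1, another subunit gene of the same enzyme, had 183 and 166 CPM upon depletion and 123 and 120 CPM in the control (0.52, adjusted p = 0.0025 in the edgeR test, and −0.14 scaled to the soma markers). The 3 genes that rose with TMM scaling, sucl-1, idhb-1 and suca-1, are all X-linked. Scaled to the soma markers, the list had 0 higher and 16 lower, against 9.04% of all genes higher and 46.1% lower. The X linkage was noticed after the values were seen. Without either control replicate the calls of these 3 genes were lost and fewer genes were called lower. The median of the 17 genes was −0.038 without control replicate 1 and −0.030 without control replicate 2, against 0.17 and 0.16 for all genes tested. It was −0.081 without depletion replicate 1 and 0.021 without depletion replicate 2, against 0.098 and 0.080 for all genes tested.

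Of 6 carriers and channels tested, 3 rose and 0 fell (50.0% called, against 63.0% of all genes tested), with a median of 0.30. The adenine nucleotide carrier ant-1.4 had 23.8 and 24.8 CPM upon depletion and 6.90 and 7.71 CPM in the control (1.73, adjusted p = 1.8e-05 in the edgeR test), and mpc-1, of the pyruvate carrier, had the smallest increase (0.46, adjusted p = 0.037 in the edgeR test), a call lost with DESeq2, when scaled to the soma markers (−0.20) and without any library other than depletion replicate 2. The increase of ant-1.4 remained when scaled to the soma markers (1.07). Of 10 mitochondrial chaperones, proteases and stress factors, 6 fell, against 32.1% of all genes lower, and 1, the X-linked dve-1, rose. Their median was −0.48 and 9 of the 10 log2 fold changes were negative. The 70.0% called in either direction were near the 63.0% of all genes tested. The protease gene lonp-1 had 61.0 and 62.8 CPM upon depletion and 121 and 123 CPM in the control (fell by 0.98, adjusted p = 4.7e-05 in the edgeR test), and dve-1, a regulator of the mitochondrial stress response, had 30.5 and 29.1 CPM upon depletion and 20.0 and 21.3 CPM in the control (0.53, adjusted p = 0.0041 in the edgeR test, and −0.14 scaled to the soma markers). The call of dve-1 was lost without control replicate 1 or without control replicate 2.

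**Figure D4:**
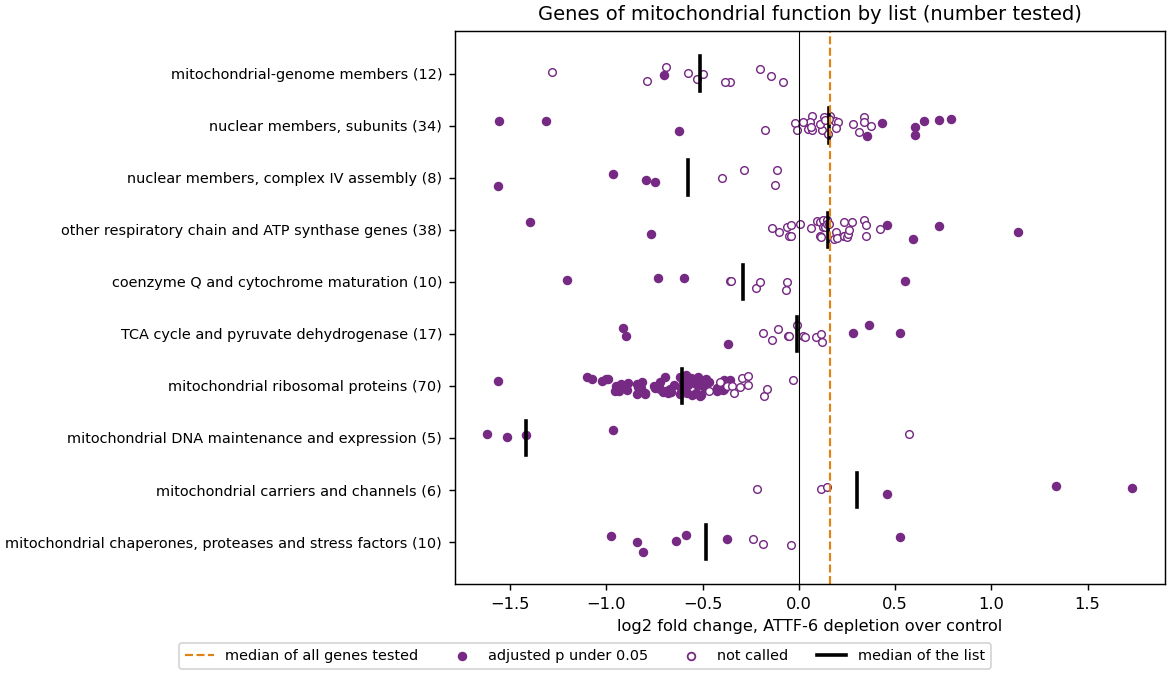
log2 fold change (ATTF-6 depletion over control, TMM scaling) of single genes in each list, with filled points for an adjusted p under 0.05, a black bar for the median of the list and a dashed line at 0.16 for the median of all genes tested. Nuclear subunits centre near that line, at 0.15, while mitochondrial ribosomal proteins centre at −0.61 and complex IV assembly factors at −0.58. Scaled to the soma markers, all genes shift by −0.66.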

How the data were processed

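RNA of whole adult animals had been depleted of ribosomal RNA and sequenced as paired, stranded mRNA-seq libraries, 2 per group, which the labels name as small RNA. The authors used Trim Galore for trimming and STAR for alignment to WS279. Orphan mates were discarded, and the values deposited by the authors are expected counts per gene from featureCounts, by strand, with reads of up to 10 alignments divided between them and without normalization. Tool versions are not given in the sources used here. The 181 transposon rows were left out. Of 46934 identifiers, 46924 were in the Ensembl 115 annotation of WBcel235. It gave exon lengths, and mitochondrial symbols came from RefSeq coordinates on the same assembly. Only 1 of the 55 genes, nduo-5, had a fractional count.

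Expected counts were rounded to whole numbers and fitted in R 4.3.3 with edgeR 4.0.16 (filterByExpr, minimum count 10, minimum total 15, TMM, quasi-likelihood F-test, two-sided, prior count 0.125, Benjamini-Hochberg over 16591 genes, threshold 0.05). Every adjusted p is from this fit unless DESeq2 1.42.0 is named. CPM are counts divided by the TMM-scaled library size, and normalization factors lay between 0.949 and 1.022. Shares of counts were compared by an exact permutation test over the 4 libraries. The study calls the libraries biological replicates in its methods and sequencing replicates in its legends, and the labels name no separate cultures, so p-values measure the spread between these libraries, and 2 per group limit the precision.

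Genes named are all mitochondrial-genome genes, the asb, asg, ucr-2 and sdha paralogs, the 5 largest and 5 smallest log2 fold changes among called nuclear genes without overlap between groups, 17 well known subunits and factors, the extremes past the threshold of each list, and attf-6. cox-6C, cox-14, cox-16, cox-19, nuo-3, cyc-2.1, mai-1, mai-2, nduf-2.2, hmg-5, polg-1, rpom-1, twnk-1, idhb-1, suca-1, sucl-2, mpc-1 and unc-54 were named after their values were seen. The genes, lists and tests were chosen with earlier results of these data known. Alternatives were DESeq2, RLE size factors, TMM without mitochondrial genes, scaling to the soma markers, no filter, a replicate block and leaving out each library.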

Additional observations from a re-analysis of the deposited data

How the results depend on the processing

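The counts of changed mitochondrial-genome genes were the least stable. Against 0 higher and 1 lower, 0 were lower with DESeq2, 3 with RLE size factors, 8 when scaled to the soma markers and 8 without the low-count filter. Leaving out 1 library gave between 3 and 11 lower and between 0 and 4 higher. Of the nuclear genes, 0 were higher and 30 lower when scaled to the soma markers (median log2 fold change −0.55), and leaving out 1 library gave between 3 and 25 higher and between 7 and 11 lower. Without depletion replicate 1 the log2 fold changes of nduo-4, ctc-1, ctc-2 and ctc-3 turned to 0.62, 0.31, 0.31 and 0.28 and that of atp-2 to −0.085, while without depletion replicate 2 they were −1.59, −1.06, −1.85, −0.81 and 0.059. Why the libraries differ was not tested.

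Scaled to the soma markers, which shifts the median of all genes by −0.66, these log2 fold changes turned negative: gas-1 −0.055, nuo-1 −0.47, nuo-2 −0.50, nuo-4 −0.54, nuo-6 −0.46, sdha-1 −0.31, sdhb-1 −0.60, cyc-1 −0.61, ucr-1 −0.55, ucr-2.2 −0.057, cox-4 −0.47, cox-5A −0.51, cox-6A −0.53, cox-6C −0.23, cox-7C −0.59, asb-2 −0.0100, atp-1 −0.60, atp-2 −0.64, atp-3 −0.50, atp-4 −0.60 and atp-5 −0.53. A further 5 turned negative without passing the test under either scaling: lpd-5 −0.38, isp-1 −0.32, ucr-11 −0.29, cox-5B −0.32 and cox-6B −0.35. Of all calls, 49.0% were higher with TMM, 41.3% with DESeq2, 43.5% with RLE size factors and 16.4% when scaled to the soma markers.

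Same-numbered libraries did not deviate together (correlation −0.01), so the numbers were not taken to pair them. The study's own table of these counts lists the control replicates in the opposite order to the labels, which were followed here; the other order would exchange the values given without each control replicate and change this correlation and the block. With a replicate block 9 mitochondrial-genome genes were lower, and 8 nuclear genes were higher and 7 lower. asb-1, asg-1, ucr-2.3, cox-11, cox-15 and cox-18 remained lower under every alternative run. Of these alternatives, the other scalings moved the median of all genes down or hardly at all, so they could not reverse a fall. No sequence or protein was examined, and ndfl-4, nuo-3 and cox-14 had at most 19 counts per library. ndfl-4 and cox-14 were called under none of the alternatives, and nuo-3 was called lower without control replicate 2 (−3.78) and without depletion replicate 2 (−6.33).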
